A study of Mus musculus with 2 samples.

Results

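The cells described here are collagen-producing fibroblasts of a mouse breast tumour that carry more RNA for Cilp, Thbs4, Tnc, Col12a1 and Col8a1 than for a set of progenitor genes. They were chosen on measured counts of unique molecular identifiers (UMIs, each standing for 1 captured RNA molecule). A barcode needed at least 500 UMIs with at most 10% of them mitochondrial, at least 20 UMIs of Col1a1, Col1a2 and Col3a1 together, at most 4 of Rgs5, Higd1b, Abcc9 and Kcnj8 (genes of pericytes), and at most 5 of Krt8 and Krt18. Its sum over Cilp, Thbs4, Tnc, Col12a1 and Col8a1 had to exceed its sum over Clec3b, Pi16, C3, Tnxb and Ly6c1. In the Met-1 transplant 167 of 2135 barcodes met the rule, and in the PyMT tumour 0 of 592 did, so the 167 cells came from 2727 in the whole series.

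The study used inAd-Chaser-mTmG mice of strain C57BL/6 that carried breast tumours, and sorted the EGFP-positive, tdTomato-negative cells of each tumour into 1 library. These animals carry Adiponectin-rtTA, TRE-Cre and a Rosa26 mT/mG reporter, so that doxycycline switches cells with an active Adiponectin promoter from tdTomato to a lasting EGFP label. Both groups shared this genotype and the doxycycline pulse. The samples are labelled as a Met-1 xenograft tumour and a PyMT breast tumour, whereas the text on the series design names EO771 as the implanted line; the sample label is followed here. The number of mice behind each library, their age and their sex were not given in the sources used here.

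Myofibroblasts are fibroblasts that assemble actin and myosin into contractile fibres and lay down large amounts of collagen-rich matrix. Alpha-smooth-muscle actin (Acta2) and transgelin (Tagln) belong to their contractile machinery, while tenascin C (Tnc), thrombospondins and osteopontin (Spp1) are matrix proteins that signal to cells. In tumours such cells are counted among the cancer-associated fibroblasts, and fibroblasts of resting adipose tissue include Dpp4- and Pi16-expressing progenitors.

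Every value below comes from a single library per tumour, so no test between tumours or between cell classes was possible, and all intervals are 95% intervals that cover counting error only. Totals past the filters were 20172911 UMIs in the Met-1 transplant and 4309454 in the PyMT tumour, and the libraries shared 0 barcodes. The fibroblasts held a median of 18995 UMIs per cell (533 to 56788) and 4693 genes, and together 15.6% of the UMIs of their library. Other Met-1 cells served for comparison: 82 progenitor-like fibroblasts, which passed the same limits with the opposite sign of the last sum, 96 pericyte-like cells with at least 20 UMIs of the pericyte genes, 804 macrophages with at least 10 C1q UMIs and 336 T cells with at least 3 Cd3 UMIs. Their median depths were lower, at 12900, 12247, 7762.5 and 8143 UMIs. Scrublet called 20 Met-1 barcodes as doublets, 3 of them among the 167 cells.

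The 5 rule genes summed to between 1 and 454 UMIs per cell with a median of 81, and the progenitor genes to between 0 and 26 with a median of 0. No progenitor-gene UMI was seen in 106 of the 167 cells. Just inside the last limit, 3 cells had a difference of 1 UMI, and just outside it 2 cells had a difference of 0. For collagen the nearest cells held 20 and 15 UMIs, for the pericyte genes 4 and 5, and for mitochondrial UMIs 9.96% and 10.7%. In 11 of the cells the rule genes summed to at most 5 UMIs. The rule left out 21 collagen-rich cells with intermediate pericyte-gene sums of 5 to 19 UMIs and 94 with sums of 20 or more.

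**Figure D1:**
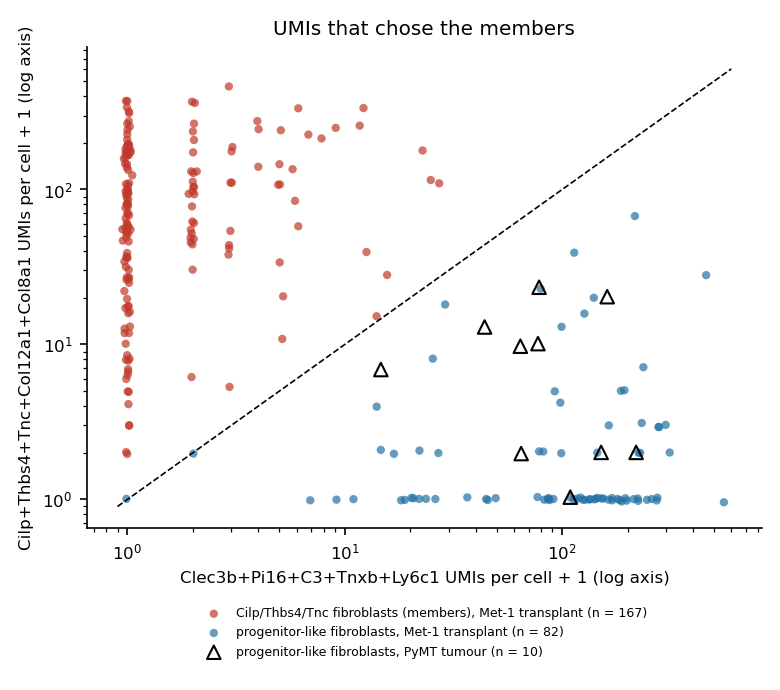
Each point is 1 collagen-rich cell, placed by its UMIs of the 5 progenitor genes (x axis, plus 1, log scale) and of the 5 matrix genes (y axis, plus 1, log scale), with a small random shift to separate equal values. The 167 Met-1 cells chosen by the rule lie above the dashed line of equality and mostly at the left edge, and the 82 progenitor-like Met-1 cells and all 10 PyMT cells lie on or below it.

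The labelled markers were present in the cells, which is partly what the rule requires. All 6 (Cilp, Thbs4, Tnc, Col12a1, Acta2 and Spp1) were detected, and their summed level was 11044 CPM (UMIs of the gene per 1e6 UMIs of the class), against 230 in progenitor-like fibroblasts and 3036 in pericyte-like cells. Cilp, Thbs4, Tnc and Col12a1 are in the rule, so the contrast of the sums partly describes the choice. Acta2 and Spp1 were not part of the rule, but they were taken as markers with earlier results of these data known. Spp1 alone held 17958 of the 34721 UMIs in the sum. General fibroblast markers (Pdgfra, Dcn, Lum, Dpt, Pdpn, Fap, Thy1 and Mfap5) summed to 5496 CPM, against 17517 in progenitor-like fibroblasts and 998 in pericyte-like cells, and none of the 8 was at 0. The 6 markers of vascular smooth muscle summed to 184 CPM, with a UMI in 137 of 167 cells, against 25.3 CPM in progenitor-like fibroblasts and 996 in pericyte-like cells. Of these, Cnn1 had 0 UMIs, Lmod1 3 and Myh11 6 over all 167 cells, whereas Des had 100, Smtn 118 and Mylk 353.

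Cilp, which encodes a cartilage intermediate layer protein, lies at chr9:65265180-65280605 (mm10, plus strand) and had a UMI in 138 of 167 cells. Its level per cell ran from 0 to 9794 CPM with a median of 927. Thbs4 (thrombospondin 4, chr13:92751590-92794818) was seen in 97 cells, from 0 to 5095 CPM with a median of 93.2. Tnc (chr4:63959785-64047015) was seen in 122 cells, from 0 to 3328 CPM with a median of 217. Thbs4 was thus the least widespread of these genes, and 14 cells held 50% of its UMIs. Summed over cells, Cilp reached 1276 CPM (1237 to 1317), and 118 in progenitor-like fibroblasts and 1.69 in pericyte-like cells. Thbs4 had 515 CPM against single UMIs in each of the other classes, and Tnc had 501 CPM against 3.62 and 40.5. Because these genes chose the cells, the differences describe the choice.

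**Figure D2:**
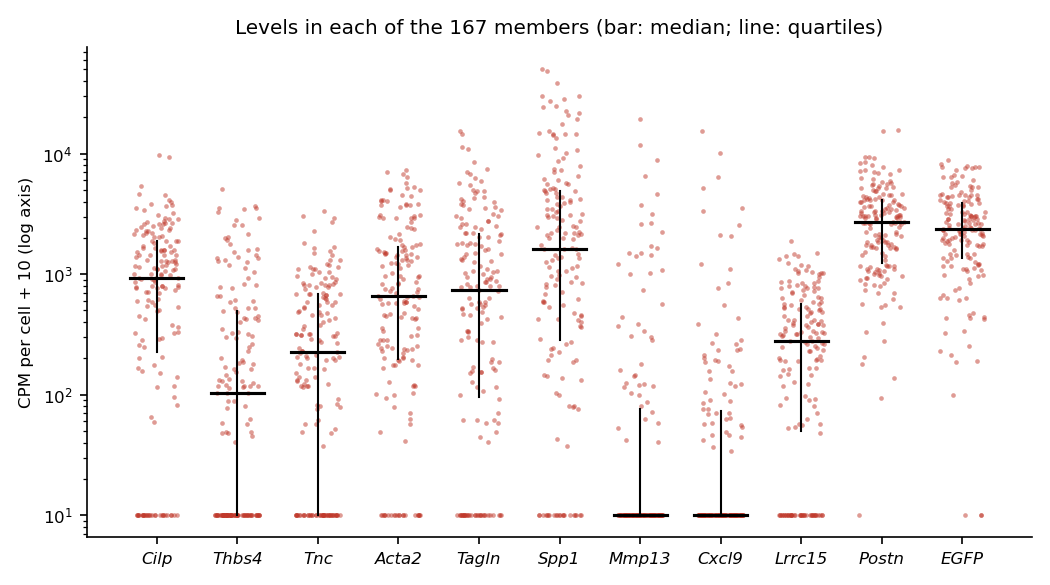
Each point is 1 of the 167 cells and its level of the gene below it (CPM per cell plus 10, log axis), with the median as a bar and the quartiles as a line. Cilp, Spp1, Acta2, Postn and EGFP were spread over most cells, whereas Mmp13 and Cxcl9 had a median of 0 and high values in few cells.

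The contractile genes Acta2 and Tagln were far higher in these fibroblasts than in the progenitor-like fibroblasts of the same tumour. Acta2 (chr19:34241090-34255590) ranged from 0 to 7313 CPM per cell with a median of 645, whereas at least 75% of the progenitor-like fibroblasts had 0. Its summed level was 1408 CPM (1366 to 1450) against 14.5 (8.27 to 23.5), a ratio of 97.3 (59.8 to 170). Tagln (chr9:45929619-45936058), an actin-binding protein, had a median of 722 CPM per cell and a highest value of 15356. It summed to 1999 CPM against 14.5, a ratio of 138 (85.0 to 242). In cells thinned to 1000 UMIs, which evens out depth, Acta2 was seen in 50.3% of these fibroblasts (42.4 to 58.2; 87.4% at full depth), in 0 of 79 progenitor-like fibroblasts and in 1.20% of T cells, which should lack it.

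A call of higher or lower needed a 2-fold ratio between the classes after 10 was added to each CPM, and at least 50 UMIs in either class. Of 7180 such genes, 8.59% were called higher and 5.17% lower than in progenitor-like fibroblasts, with a median log2 ratio of 0.19. The limit of 50 UMIs equals 15.9 CPM in the larger class and 45.2 CPM in the smaller one, so genes of low level enter more easily where these fibroblasts are higher. Of 24 measured contractile and actin genes, 17 were higher and 0 lower, with a median log2 ratio of 1.52. They included the tropomyosins Tpm2, at 373 against 17.2 CPM, and Tpm1, at 903 against 168 CPM, the myosin light chain kinase Mylk, at 112 against 6.33 CPM, and the actin-bundling protein Palld, at 548 against 78.7 CPM. Tagln2, Myl6, Actn4, Flna, Zyx, Pdlim7 and the smooth muscle marker Smtn did not pass 2-fold.

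Serum response factor binds a 10-base element, the CArG box, in the promoters of many contractile genes. The RefSeq windows of 250 bases before the start (GRCm38.p6, both strands) were searched for it because these genes were higher together. Only the strict form was searched: CC, then only A or T, then GG, over 10 bases. It occurred in 4 of 25 matched contractile genes (16%), in 0 of 15 collagen and 0 of 17 matricellular genes, and in 1.62% of 27025 genes. Stretches of 60 bases around the 4 matches, with the box in capitals, are given 5′ to 3′ on the gene's strand.
Cnn2, chr10:79988519-79988578, plus strand, box starting 56 bases before the start: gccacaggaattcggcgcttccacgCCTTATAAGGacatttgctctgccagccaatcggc
Myl6, chr10:128493025-128493084, minus strand, box starting 50 bases before the start: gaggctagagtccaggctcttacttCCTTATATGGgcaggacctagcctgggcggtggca
Myl9, chr2:156775278-156775337, plus strand, box starting 161 bases before the start: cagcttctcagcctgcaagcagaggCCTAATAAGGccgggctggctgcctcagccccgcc
Vcl, chr14:20929148-20929207, plus strand, box starting 227 bases before the start: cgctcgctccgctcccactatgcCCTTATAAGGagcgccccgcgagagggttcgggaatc
The window of Acta2 held no match to this strict form, and Tagln was not among the matched genes. A box with a G or C between its CC and GG would not be found by this search. A match describes the letters of the window and does not show binding, and no match says only that these letters are not there. Of these genes, Cnn2 (calponin 2) had a log2 ratio of 1.57 and Myl9 (a regulatory myosin light chain) of 1.17. Vcl (vinculin) was also above 2-fold, at 151 against 69.6 CPM, and Myl6, with a log2 ratio of 0.96, was just under it. Srf, the gene of serum response factor, was called neither higher nor lower against progenitor-like fibroblasts or pericyte-like cells. The part of this factor in the contractile levels was not tested.

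**Figure D3:**
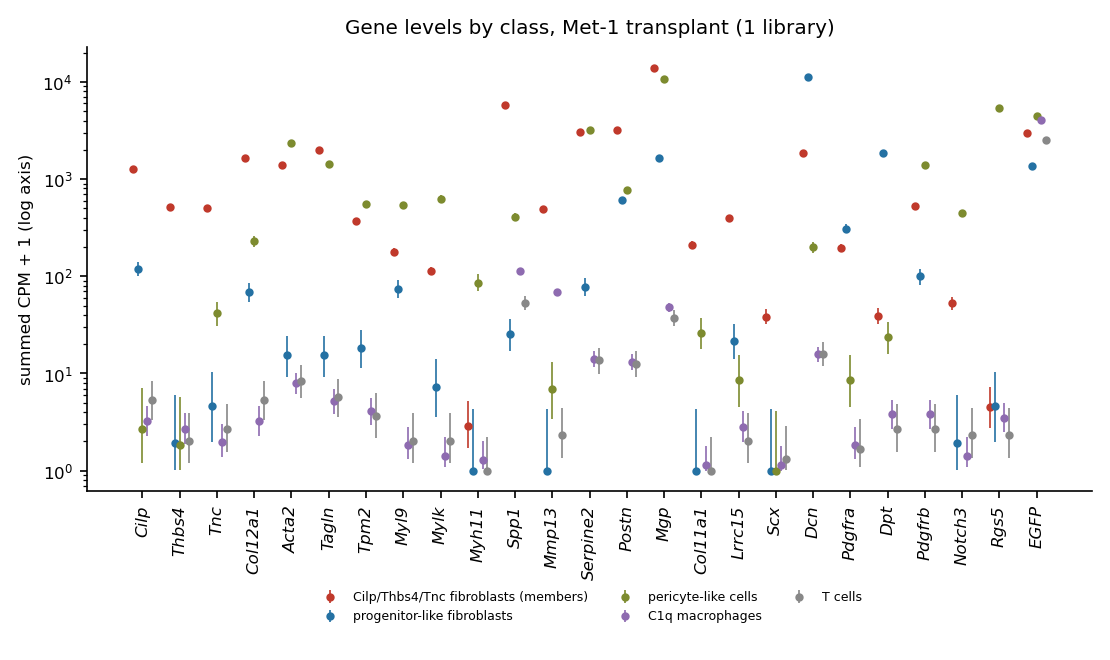
Summed levels (CPM plus 1, log axis) of 25 genes in the 5 cell classes of the Met-1 transplant, with exact Poisson intervals as vertical lines. Acta2, Tagln, Tpm2, Mylk and Spp1 of the Cilp, Thbs4 and Tnc fibroblasts (red) lie far above progenitor-like fibroblasts (blue). Myl9 lies above them by less, and Myh11 had 6 UMIs against 0. The fibroblast genes Dcn and Pdgfra lie far above pericyte-like cells (green), and Rgs5 and Myh11 far below these.

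Single secreted matrix and protease genes were also far higher than in progenitor-like fibroblasts, although the lists they belong to were mixed. Spp1 (osteopontin, chr5:104435118-104441050) had the highest log2 ratio of all named genes, 7.38. It was seen in 146 of 167 cells, from 0 to 50138 CPM with a median of 1614, and 13 cells held 50% of its UMIs. The summed level was 5712 CPM against 24.4, a ratio of 234 (161 to 355), and against 408 in pericyte-like cells and 113 in macrophages, a frequent source of Spp1 in tumours. Of the pericyte-like UMIs of Spp1, 52.1% came from 1 cell.

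Mmp13 (collagenase 3, chr9:7272514-7283331) was confined to fewer cells. A UMI was present in 48 of 167 (28.7%), 1 cell held 29.6% of all Mmp13 UMIs, and 0 UMIs were found in progenitor-like fibroblasts. The ratio of 494 CPM to the floor of 3 counts was at least 182-fold; without the highest cell the log2 ratio went from 5.65 to 5.16. Macrophages had 67.2 CPM of it. Serpine2 (protease nexin 1, chr1:79794197-79861180), an inhibitor of thrombin and plasminogen activators, was by contrast widespread, with a median of 2638 CPM per cell. Its sum was 3044 against 76.9 CPM, a ratio of 39.6 (32.0 to 49.6), and 3226 in pericyte-like cells. Over the 26 measured proteases and inhibitors, 8 were higher, including Timp1 and Plau, and 6 lower, including Htra3 and the stromelysin Mmp3, with a median log2 ratio of 0.33.

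Collagen chains outside the rule were higher in these fibroblasts: 10 of 14 measured were called higher and 0 lower, with a median log2 ratio of 1.54. Col11a1, a fibril-nucleating chain often used to mark activated tumour fibroblasts, was seen in 111 of 167 cells and had 211 CPM against 0 UMIs, at least 77.9-fold. Col7a1, the anchoring-fibril collagen, had 92.9 CPM against 0 UMIs, at least 34.2-fold, and Col8a2 111 against 2.71 CPM. Among 20 genes of collagen processing and cross-linking, 3 were higher and 2 lower. The matricellular and proteoglycan lists were mixed in direction. Of 30 matricellular genes, 10 were higher and 6 lower (median 0.08). The higher ones included Postn (periostin) at 3183 against 611 CPM, Thbs1 (thrombospondin 1) at 923 against 58.8 CPM and the CCN protein Wisp1 at 306 against 11.8 CPM, and the lower ones Efemp1 (fibulin 3) at 1.59 against 1114 CPM. Of 12 proteoglycans, 4 were higher and 5 lower (median -0.62): Bgn (biglycan) had 4472 against 1525 CPM and Dcn (decorin) 1850 against 11094 CPM.

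A small set of genes known from tendon and cartilage was also present. Scx, a tendon transcription factor, had 37.5 CPM in these cells and 0 UMIs in both progenitor-like fibroblasts and pericyte-like cells. It was found in 32 of 167 cells (19.2%; 5.45% after thinning). Fmod (fibromodulin), a tendon proteoglycan, had 47.4 CPM against 3.62, and Runx2, a bone and cartilage factor, 41.4 against 3.62 CPM. Of 19 genes in the list only 5 were measured, 4 of them higher, and Comp was called neither higher nor lower. Tnmd, Mkx, Sox9, Acan and Col2a1 were under 50 UMIs in both classes. Against pericyte-like cells 4 of 5 were higher as well, but Runx2, with 33 UMIs in those cells, was called neither way.

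Other genes with the highest ratios over progenitor-like fibroblasts were Cd59a, a complement inhibitor, at 370 against 1.81 CPM, Rflnb (refilin B), a filamin-binding protein, at 393 against 5.43 CPM, and Ddah1, which degrades asymmetric dimethylarginine, at 304 against 2.71 CPM. Igfbp2, an insulin-like growth factor binding protein, had 268 against 2.71 CPM, and the receptor-modifying protein Ramp1 302 against 7.23 CPM. Spon1 (spondin 1) had 827 against 42.5 CPM, Uck2, a uridine-cytidine kinase, 201 against 2.71 CPM, and the imprinted gene Mest 219 against 4.52 CPM. Mgp (matrix Gla protein), an inhibitor of calcification, was among the genes with the most UMIs. Its level ran from 0 to 65633 CPM per cell with a median of 12434, and it summed to 14024 against 1647 CPM.

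Genes of adipose progenitors were mostly low in these fibroblasts, although the rule used 5 such genes of its own and the direction of related genes is not independent of them. Of 16 other measured genes, 11 were lower and 1, Fabp5, was higher, with a median log2 ratio of -3.33. Dpp4 had 1.91 against 258 CPM, Cd34 12.7 against 778, and Sema3c, a semaphorin, 5.73 against 520. Further low genes were the Wnt antagonist Sfrp4, at 3.50 against 877 CPM, the procollagen protease enhancer Pcolce2, at 1.27 against 693 CPM, the scavenger receptor Scara5, at 0.954 against 255 CPM, Ackr3, an atypical chemokine receptor, at 0.318 against 312 CPM, and Dpt (dermatopontin), at 38.2 against 1864 CPM. Pdgfra, a receptor of both fibroblast states, was under 2-fold, at 196 against 307 CPM.

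Inflammatory fibroblast genes were mostly lower too. Of 20 measured, 12 were lower and 2 higher, with a median log2 ratio of -1.53. The complement gene C4b had 11.8 against 1458 CPM, the hyaluronan synthase Has1 9.86 against 376 CPM and the chemokine Cxcl12 228 against 1034 CPM. The higher genes were carried by few cells. Cxcl9, an interferon-induced chemokine, had 330 against 3.62 CPM, a median of 0 per cell, and 84.3% of its UMIs in 10 cells. Saa3 (serum amyloid A3) had 55.7 against 8.14 CPM, but without its highest cell the log2 ratio of 1.86 became -0.21. Of 21 interferon-response genes 0 were higher and 1 was lower. Of 19 immediate early and heat shock genes, which also respond to tissue dissociation, 9 were lower and 0 higher (median -0.97); Dusp1 had 111 against 719 CPM. The part of dissociation in these differences was not tested.

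Signalling genes were divided. Of 24 TGF-beta and BMP pathway genes, 5 were higher and 6 lower. The higher ones were the ligands Tgfb1, Tgfb3, at 162 against 15.4 CPM, and Inhba (activin A subunit), at 173 against 8.14 CPM, the latent-ligand binding protein Ltbp2, at 52.5 against 2.71 CPM, and the activin antagonist Fstl3. The lower ones were Gdf10, Ltbp1, Nbl1, Fst, Tgfbr3 and Ltbp4. Among 14 genes listed for the Wnt pathway, the receptors Fzd1, Fzd2 and Ror2 with Dkk3 and Tcf4 were higher (Tcf4 encodes a bHLH factor and not the Wnt effector once called TCF-4), and the secreted Sfrp1, Sfrp2, Sfrp4, Wnt2 and Dkk2 with Fzd4 were lower. Of 22 growth factors and receptors, 9 were higher and 4 lower. Pdgfrb, a receptor for PDGF, had 532 against 98.6 CPM, and Ptn (pleiotrophin) 614 against 81.4 CPM. Of 17 integrins and adhesion receptors, 9 were higher and 1 lower. Itga1, a collagen-binding integrin chain, had 504 against 29.8 CPM, the neural adhesion molecule Ncam1 252 against 13.6 CPM and the mesenchymal cadherin Cdh11 587 against 73.2 CPM. Among 20 mesenchymal transcription factors, 8 were higher, led by Runx1 at 513 against 59.7 CPM, and Ebf2, Meox2 and Prrx1 were lower.

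Set against pericyte-like cells, the same fibroblasts had contractile genes at nearby levels and higher matrix genes. Of 7154 genes, 7.58% were called higher and 4.46% lower, with a median log2 ratio of -0.02. Only 1 of 25 contractile genes was higher (Palld) and 4 were lower (Myh11, Mylk, Des and Myl9), with a median of -0.42. Acta2 was 1.68 times as high in pericyte-like cells (1.60 to 1.76), at 2358 CPM and a median of 1494 CPM per cell, and Tagln was 1.40 times as high in the fibroblasts (1.33 to 1.48). The per-cell ranges of both genes overlapped between these classes.

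The 10 genes with the highest ratios over pericyte-like cells included matrix genes, the protease Mmp13 (log2 ratio 4.99), Igfbp2 (4.80) and the growth factor Ptn (5.15). Mfap5, a microfibril protein, had 2129 CPM against 31.2 and a UMI in 158 of 167 cells; it was at a like level, 1846 CPM, in progenitor-like fibroblasts. Col14a1, a fibril-associated collagen, had 627 against 7.59 CPM, Mfap4 a log2 ratio of 4.68, Fndc1 535 against 7.59 CPM and Fbln2 (fibulin 2) 468 against 9.27 CPM. Lrrc15, a membrane protein used to mark TGF-beta-driven tumour fibroblasts, had 400 against 7.59 CPM, a ratio of 52.8 (27.7 to 116), and 20.8 CPM in progenitor-like fibroblasts. C1qtnf3 had 256 CPM against 0 UMIs, at least 101-fold. By list, 19 of 29 matricellular genes, 10 of 11 proteoglycans, 8 of 15 collagen chains and 14 of 21 growth factors and receptors were higher. In these lists 1, 0, 2 and 1 were lower. Other lists were mixed or went the other way. Of 19 integrins and adhesion receptors 9 were higher and 5 lower. Of 20 mesenchymal transcription factors 3 were higher and 8 lower. Pdgfrb and Itga1, which were higher than in progenitor-like fibroblasts, were lower than in pericyte-like cells.

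Other genes of pericytes were lower than in pericyte-like cells. They included the mitochondrial subunit Cox4i2, at 5.09 against 476 CPM, and the chloride channel Ano1, at 2.86 against 204 CPM. The connexins Gja4 and Gjc1 and the adhesion molecule Esam were lower too. Both classes were chosen on 4 pericyte genes, so the direction of related genes is not independent of that choice. The olfactory-family receptor gene Olfr558 had 0 UMIs against 168 CPM, at least 176-fold lower. The basement membrane chains Col4a1, Col4a2 and Col18a1 were the 3 of 12 basement membrane genes that were lower. Col4a1 had 1686 CPM in these fibroblasts, 552 in progenitor-like fibroblasts and 5671 in pericyte-like cells. Several pericyte genes held a middle level: Notch3 had 52.2 CPM, against 0.904 in progenitor-like fibroblasts and 444 in pericyte-like cells, and Mcam 81.1, against 3.62 and 519. The 7 pericyte markers, of which the rule limits 4, summed to 234 CPM in the fibroblasts, 90.4 in progenitor-like fibroblasts and 9014 in pericyte-like cells. The part of such cells in the middle levels was not tested.

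**Figure D4:**
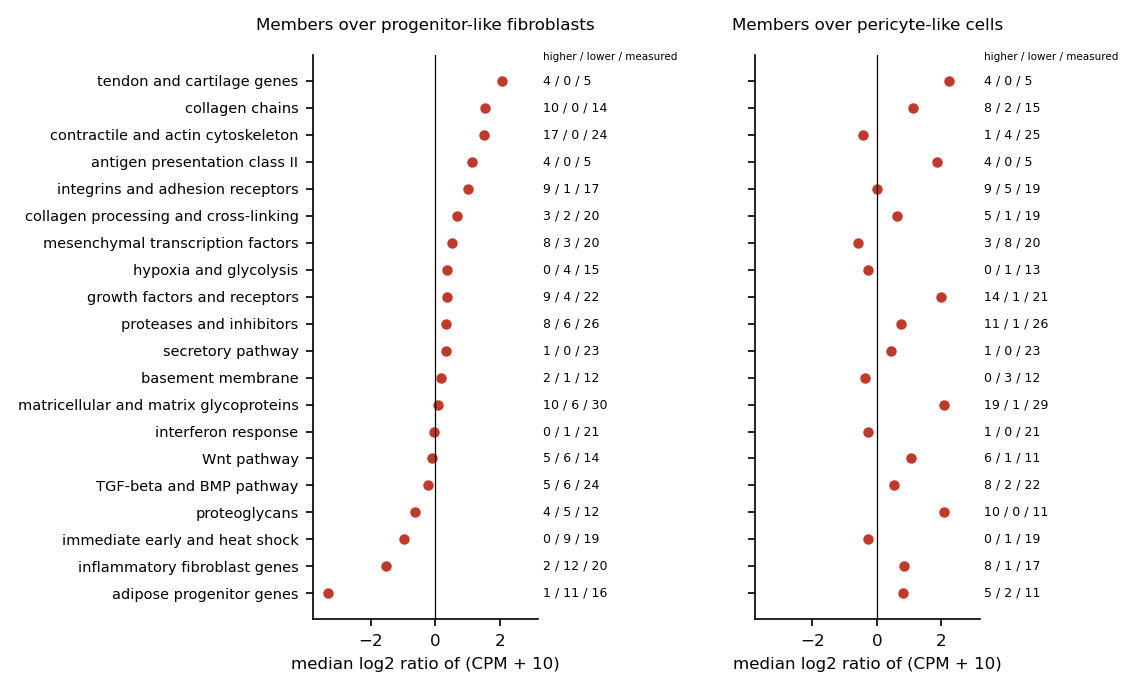
Median log2 ratio of (CPM + 10) for each gene list with at least 5 genes measured against progenitor-like fibroblasts, in the fibroblasts over progenitor-like fibroblasts (left) and over pericyte-like cells (right), with the numbers of genes higher, lower and measured. Contractile genes had a median of 1.52 on the left and -0.42 on the right, and proteoglycans -0.62 and 2.08.

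Within the 167 cells the marker genes did not vary as a single block. Across 157 cells thinned to 5000 UMIs (10 shallower cells left out), Acta2 went with the contractile genes Tagln (Spearman rho 0.72), Tpm2 (0.52), Myl9 (0.50) and Tpm1 (0.46). It also went with Actb (0.64), an actin gene outside the contractile list. Actb had 4751 CPM in the fibroblasts, 7146 in macrophages and 6796 in T cells. The rho of Acta2 was -0.09 with Spp1, -0.14 with Cilp, -0.05 with Thbs4 and 0.03 with Tnc. The rule genes Col12a1 and Col8a1 did go with part of the contractile genes: rho was 0.50 for each with Tagln, 0.42 and 0.37 with Tpm1, and 0.24 and 0.20 with Acta2. All these cells share 1 library, and the values describe them without a test. After thinning, the rho with a cell's original depth was 0.11 for Acta2, 0.10 for Cilp, 0.26 for Thbs4, 0.29 for Tnc and 0.32 for Spp1.

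A number of matrix genes varied with Cilp, Thbs4 and Tnc, but not all did: the summed collagen chains had a rho of 0.09 with Cilp and Thbs4 together, basement membrane genes -0.24 and proteoglycans 0.49. Cilp, Thbs4, Tnc, Col1a1 and Col1a2 are themselves in the sums that chose the cells, so values between them describe the choice too. Cilp went with Thbs4 (0.46), Col14a1 (0.54), Mfap4 (0.52), Postn (0.50), Pdgfrl (0.49) and Pmepa1 (0.46), a TGF-beta-induced gene, and against Pdgfa (-0.41). Thbs4 went with Mfap4 (0.50), with Dio3 (0.42), the enzyme that inactivates thyroid hormone, with Rflnb (0.41) and with the transcription factor Msc (0.40). Dio3 itself had 133 CPM in these cells and 0 UMIs in progenitor-like fibroblasts and pericyte-like cells. Tnc went with Col1a1 (0.54), Col1a2 (0.53), Lrrc15 (0.46), Col14a1 (0.44) and Postn (0.44). It went against Sparcl1 (-0.48), Igfbp7 (-0.43) and Ndufa4l2 (-0.43). Of these, Sparcl1 and Ndufa4l2 were called lower than in pericyte-like cells, and Igfbp7, with a log2 ratio of -0.69, was not. Spp1 had 2 partners past 0.4 in size, Igfbp4 (0.46) and the protease Prss23 (-0.42), and a rho of 0.35 with Tnc.

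**Figure D5:**
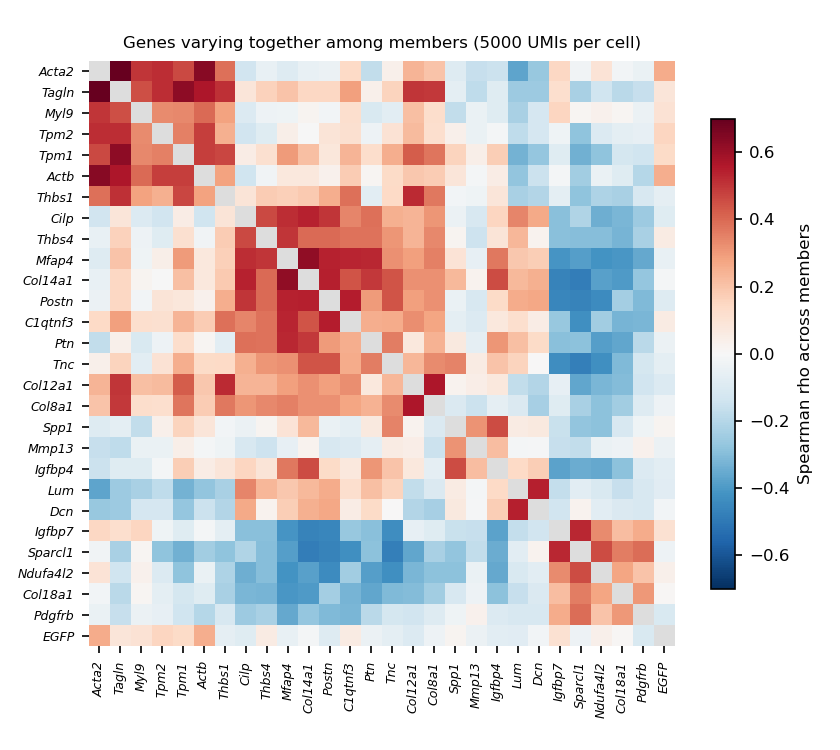
Spearman rho between 28 genes across 157 of the cells thinned to 5000 UMIs, from negative (blue) to positive (red); the genes were picked after their values were seen, and the diagonal is left grey. Acta2, Tagln, Myl9, Tpm2, Tpm1 and Actb form a block at the upper left, apart from the block of Cilp, Thbs4, Mfap4, Col14a1 and Postn, which runs against Igfbp7, Sparcl1 and Ndufa4l2.

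The genes with the widest spread over cells, by variance-to-mean ratio at 5000 UMIs, were Malat1 (102), Cd74 (81.5), Spp1 (76.2), Apoe (48.4), Mmp13 (45.2) and Mgp (40.9), where the median of 1673 genes was 1.20. Cxcl9, Ccl2, Mmp3 and Cthrc1 followed. Cthrc1 shows how few cells can make such a value: 1 cell held 40.1% of its UMIs. For Mmp3, 10 cells held 92.7% of the UMIs, and for the chemokine Ccl2 88.1%.

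Cd74, the MHC class II invariant chain, was the class II gene among these 10, and immune RNA moved with it. It had 480 CPM against 172 in progenitor-like fibroblasts and 26442 in macrophages, and 4 of 5 class II genes were called higher in each comparison. The 8 macrophage markers summed to 444 CPM, from 0 to 9806 CPM per cell with a median of 86.6, against 316 in progenitor-like fibroblasts and 129 in pericyte-like cells, with none at 0. Of 753 C1q UMIs in the fibroblasts, 623 lay in 6 cells with at least 10 each. Without barcodes of at least 10 C1q or 3 Cd3 UMIs (7 of the 167), the class II median log2 ratio went from 1.14 to -0.09 against progenitor-like fibroblasts and from 1.87 to -0.02 against pericyte-like cells. That exclusion was chosen after the values were seen. Spp1, at 7.38, and Mmp13, at 5.70, were as high over progenitor-like fibroblasts without these barcodes.

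No cell of the PyMT tumour met the rule, which allows a share of up to 0.507% of its 592 barcodes at a limit of 3 counts, or 0.621% by the exact interval. It held 10 collagen-rich cells past the pericyte and keratin limits, so 0 of 10 allows a share of up to 30.8% of such cells by the exact interval, against 67.1% (60.9 to 72.9) in the Met-1 transplant. These 10 cells had 14 to 215 progenitor-gene UMIs (median 77.5) and 0 to 23 matrix-gene UMIs (median 7.5). In the cell nearest to the rule the difference was -8 UMIs, where at least 1 was needed. Cilp was present in them, with 36 UMIs in 4 cells or 302 CPM (211 to 418), between the 2 Met-1 fibroblast classes. Tagln had 9 UMIs, Thbs4 4, Tnc 4, Acta2 2 and Spp1 0. With 1 library per tumour, tumour type cannot be told apart from mouse, sort and depth.

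The lineage label was measured as RNA as well. EGFP had a UMI in 164 of 167 cells, from 0 to 8874 CPM with a median of 2382, and summed to 2967 CPM. It was 1353 CPM in progenitor-like fibroblasts and 4423 in pericyte-like cells, and it was also 4096 in macrophages and 2518 in T cells, so its presence did not separate the cell types in this sort. Adiponectin (Adipoq), whose promoter drives the label, had 0 UMIs in the 167 cells, which allows a share of up to 1.80% of cells with a UMI, and 0 in all other classes compared. Of 7 adipocyte markers 5 were at 0 and the sum was 2 UMIs. Lpl, a lipase of adipocytes and macrophages, was higher, at 987 against 449 CPM, and the fatty acid binding protein Fabp4 lower, at 4.77 against 45.2 CPM.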

How the data were processed

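The deposited matrices hold whole-number UMI counts per gene and barcode, made by the authors with Cell Ranger 3.1.0 against mm10, per the submitters' processing notes (annotation release: not given in the sources used here). The 31054 gene rows of both libraries were read with scanpy 1.11.5 and scipy 1.17.1 (Python 3.11.15). Members and gene lists were chosen with earlier results of these data known. Counts were summed per class and given as CPM with exact Poisson intervals, ratios with exact conditional binomial intervals and shares with exact Clopper-Pearson intervals, all at 95%. Where a class had 0 UMIs, its level was bounded by 3 counts. Calls used at least 50 UMIs in either class and a 2-fold ratio of (CPM + 10). The ratio step was tested on simulated Poisson totals per class. These had no spread between cells, so that test does not cover genes carried by few cells. Doublets were called with Scrublet and kept, and removed as an alternative. Named genes were the 15 highest and 10 lowest against progenitor-like fibroblasts, 10 and 10 against pericyte-like cells, 2 and 2 per list, the 15 most abundant, the 10 most variable, and up to 5 correlated each way with Acta2, Spp1, Cilp, Thbs4 and Tnc. Cnn2, Vcl, Myl6, Thbs1, Timp1, Plau, Cxcl12, Cdkn2a, Cdkn2b, Mki67, Top2a and Aqp2, and list members given by name alone, were chosen after their values were seen. Coordinates are from GENCODE on GRCm38, the same build as mm10. The text gives only part of the genes this rule names, and 1 of them is not reported here.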

Additional observations from a re-analysis of the deposited data

How the results depend on the processing

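All 24 values of membership computed under alternatives stayed within their limits. The number of fibroblasts stayed within 1.5 times, their share within its interval, and PyMT members at 0. Of 60 gene counts under alternatives, 51 stayed within 1.5 times. With 50 UMIs required in both classes the counts were 144 higher and 230 lower against progenitor-like fibroblasts, in place of 617 and 371, and 119 and 204 against pericyte-like cells, in place of 542 and 319. Fewer genes are tested then. A pseudocount of 1 gave 928 higher against progenitor-like fibroblasts. A pseudocount of 50 gave 210 and 237 against progenitor-like fibroblasts, and 210 and 157 against pericyte-like cells. Centring subtracted the median log2 ratio of genes with 50 UMIs in both classes, 0.11 against progenitor-like fibroblasts and -0.13 against pericyte-like cells. Leaving out barcodes with immune UMIs, an alternative chosen after the data were seen, reversed the class II medians to -0.09 and -0.02. Against progenitor-like fibroblasts it reversed Cd74 (-0.31), H2-Aa (-0.35), H2-Ab1 (-0.028) and H2-Eb1 (-0.086). Against pericyte-like cells it reversed Apoe (-0.0098), C1qb (-0.11), Cd74 (-0.31), H2-Aa (-0.024), H2-Ab1 (-0.00051), H2-Eb1 (-0.41) and Lyz2 (-0.26). Without its highest cell, Saa3 reversed to -0.21 against progenitor-like fibroblasts; apart from removing those barcodes or that cell, the cause was not tested. Of 648 list medians under alternatives, 612 stayed, 34 moved and 2 reversed; of 5962 values of named genes, 4839 stayed, 1111 moved and 12 reversed. No paired analysis was possible because each tumour has 1 library. Leaving out a replicate could not be run for the same reason.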

Other observations

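RNA of dividing cells was scarce in the fibroblasts. Over 16 genes of mitosis and its preparation, counted after the other results were seen, the 167 cells held 52 UMIs (16.5 CPM), where progenitor-like fibroblasts held 347 (314 CPM) and pericyte-like cells 420 (354 CPM). At least 2 such UMIs were present in 8 of 167 cells (4.79%, 2.09 to 9.22), in 6 of 82 progenitor-like fibroblasts (7.32%, 2.73 to 15.2) and in 16 of 96 pericyte-like cells (16.7%, 9.84 to 25.7), although the fibroblasts were sequenced more deeply per cell. Mki67, a marker of cycling cells, had 3 UMIs in the 167 cells, and Top2a, a topoisomerase of dividing cells, 1. In the other classes, with the larger sums, single genes rested on few cells. Of the Mki67 UMIs, 2 cells held at least 50% in progenitor-like fibroblasts and 2 in pericyte-like cells. Of the Top2a UMIs in pericyte-like cells, 1 cell held 85.7%. The inhibitors of cyclin-dependent kinases Cdkn2a and Cdkn2b, which lie side by side in the genome, had 188 and 136 CPM in the fibroblasts. In progenitor-like fibroblasts Cdkn2a had 4.52 CPM and Cdkn2b 2.71, and in pericyte-like cells 44.7 and 21.9. Cdkn2a ran from 0 to 1936 CPM per cell with a median of 46.1, and 15 cells held 50% of its UMIs. These counts do not separate the overlapping transcripts of Cdkn2a.

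Aqp2, a water channel known from the kidney collecting duct, had 391 UMIs (124 CPM) in the fibroblasts, 0 in progenitor-like fibroblasts and 2 in pericyte-like cells, at least 45.9-fold above the former. Its level in the fibroblasts is given as a measurement, and no value here bears on its source. Secretory pathway genes differed little, with 1 of 23 higher in each comparison and 0 lower.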
